A study of Mus musculus with 8 samples.

Results

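Zinc finger proteins fold around zinc ions, and most of them read DNA through repeated C2H2 fingers. Members were the protein-coding genes named Zfp followed by a digit whose mean FPKM (a fragment count scaled by transcript length and by the mapped reads of the library) over all 8 mice was at least 2. By this rule 286 genes were selected, of 317 protein-coding Zfp genes and 12531 protein-coding genes in the expression table. The mean level chose the members and is given as a description.

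The samples were cortexes of male C57BL/6 mice that started a normal diet or a high fat diet (60% fat by weight) at 8 weeks of age and were killed under ether at 16 weeks, after 8 weeks of feeding. Each diet group held 4 mice, numbered 1 to 4, with 1 library of rRNA-depleted total RNA per mouse. The comparison asks which of these transcripts differ in level with the diet. The summed FPKM of the whole table was between 562431 and 639142 per mouse, while read depth was not given and is unknown. FPKM values were rounded to 0.1, so that members near the threshold carry few significant digits.

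Many C2H2 proteins also carry a KRAB domain at their amino terminus. The KRAB domain binds Trim28, which brings the histone methyltransferase Setdb1 and HP1 proteins to the bound DNA and silences transposable elements and imprinted loci. KRAB genes lie in clusters of tandem copies, and close copies share sequence. Other zinc finger proteins activate transcription, bind RNA, or work as ubiquitin and SUMO ligases.

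The levels of the members spread over a wide range. Their mean FPKM had a median of 6.67 and ran from 2.14 to 125, with 74 members at 10 or more, 16 at 20 or more and 99 below 5. Zfp365, which encodes a DISC1-binding protein, had the highest mean at 125 FPKM. Zfp207, whose product binds Bub3 and the mitotic spindle, followed at 62.1 FPKM, and Zfp644, a partner of the G9a and GLP histone methyltransferases, at 43.3 FPKM. Closest above the threshold were Zfp786 at 2.14, Zfp442 at 2.19 and Zfp764 at 2.23 FPKM. Closest below it were Zfp964 at 1.98, Zfp599 at 1.96 and Zfp78 at 1.93 FPKM.

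The members together kept a steady summed level. Summed FPKM was 2533.4, 2539.5, 2545.4 and 2535.2 in normal diet mice 1 to 4 and 2543.1, 2608.2, 2534.3 and 2558.3 in high fat diet mice 1 to 4. The groups overlapped, and high fat diet mouse 2 was the highest. Among mice of 1 diet, the coefficient of variation of a member had a median of 7.03% in normal diet mice against 7.06% in high fat diet mice, beside 8.45% and 7.08% over all genes tested.

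Single members moved in both directions. By limma, with p-values adjusted over 13982 genes and 0.05 as the threshold, 66 of 286 members (23.1%) differed between diets, beside 33.1% of all genes tested. Of these, 35 members (12.2%) increased on the high fat diet, beside 17.7% of all genes, and 31 (10.8%) decreased, beside 15.3%. A called change of over 1.5-fold in either direction was reached by 6 of the 286 members (2.10%), 4 upward and 2 downward, beside 7.13% of all genes tested. Among these 6, Zfp341 had a normal diet mean below 2 FPKM and Zfp521 a high fat diet mean below it. Both are members only through the diet group where they were higher. The values of 78 members (27.3%) did not overlap between diets, 42 higher and 36 lower on the high fat diet, beside 31.9% of all genes. Each of these shares was below that over all genes. The median log2 fold change of the members was -0.01, with quartiles at -0.14 and 0.13, and the median over all genes tested was 0.00. In other fits the median of the members was between -0.03 and 0.02. Here and below, a fold change is high fat over normal diet on the scale of log2(FPKM + 0.1), which understates changes at low levels. Of the 31 Zfp genes below the level threshold, 2 increased, Zfp628 (log2 fold change 0.69, adjusted p = 0.00367) and Zfp879 (log2 fold change 0.44, adjusted p = 0.0308), named here after their values were seen. The call of Zfp879 ended without any 1 of 6 mice (adjusted p from 0.0516 to 0.0769; all but normal diet mouse 1 and high fat diet mouse 3), and the call of Zfp628 ended in the fit with cerebellum markers described below (0.79, adjusted p = 0.0538). For Zfp879 the adjusted p was also above 0.05 after quantile rescaling (0.0597), with the replicate block (0.0861), without normal diet mice 2 and 3 (0.122) and with the log2 (0.37) or linear (0.166) marker covariate, where the log2 fold changes were 0.36, 0.44, 0.42, 0.34 and 0.38, and an added constant of 1 lowered it to 0.27. Below the threshold too, Zfp78 was at -0.55 (adjusted p = 0.0677). It passed with the replicate block (adjusted p = 0.025) and without normal diet mouse 1 (-0.68, adjusted p = 0.0339).

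**Figure D1:**
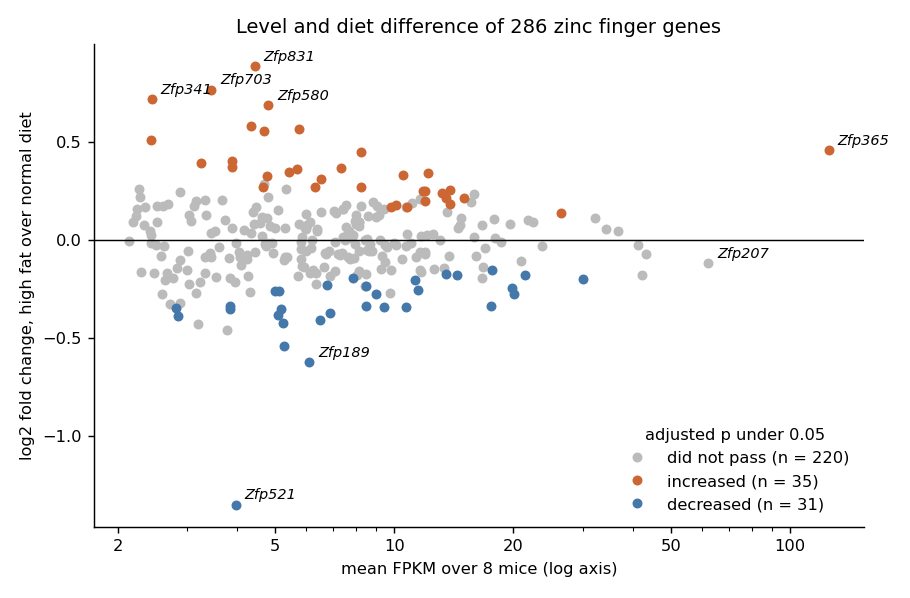
Each point is 1 of 286 Zfp genes, placed by its mean FPKM over 8 mice (x axis, log scale) and its log2 fold change, high fat over normal diet (y axis). Orange points are the 35 that increased, blue points the 31 that decreased, and gray points the 220 that did not pass. Zfp521 lies lowest at -1.35 and Zfp831 highest at 0.89.

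In the plot of level against fold change, the rank correlation of fold change with mean level was 0.01 over 286 members, and from -0.12 to 0.09 in other fits. Of the 187 members at 5 FPKM or more, 49 passed, and of the 99 below it 17 passed. Its points share the same 8 libraries.

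Marker genes of brain regions outside the cortex and of glia differed among the same mice. Of the cerebellum markers, 5 of 8 tested decreased, and their summed FPKM was 56.0, 282.1, 376.8 and 109.9 in normal diet mice 1 to 4 and 43.3, 46.6, 38.2 and 44.4 in high fat diet mice 1 to 4. Normal diet mice 2 and 3 were far above the other 6, and all 4 normal diet mice were above all high fat diet mice. Calb1 was the most abundant marker of that list (33.6, 58.3, 65.4 and 35.7 FPKM against 20.9, 24.4, 20.3 and 23.3), and Gabra6 was listed at 0 in at least 1 mouse. Thalamus markers, 3 of 8 decreased, summed to 74.4, 205.9, 200.0 and 86.6 FPKM on the normal diet and to 56.4, 59.9, 57.4 and 56.2 on the high fat diet, and here too mice 2 and 3 stood apart and the diets did not overlap. Calb2 was the most abundant of them. Striatum markers, 10 of 11 decreased, summed to 476.6, 390.9, 369.5 and 268.2 FPKM against 104.0, 105.6, 117.7 and 105.8, with Penk the most abundant, and all 4 normal diet mice were above all high fat diet mice. Cortical projection neuron markers, 6 of 10 increased and 1 decreased, summed to 433.6, 329.5, 310.5 and 455.7 FPKM against 508.8, 531.4, 589.0 and 498.8, with Slc17a7 the most abundant. Their sums were lowest in normal diet mice 2 and 3.

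Oligodendrocyte markers, 8 of 8 decreased, summed to 2763.4, 3390.8, 3046.2 and 2052.9 FPKM on the normal diet and to 1475.1, 1416.8, 1967.2 and 1429.4 on the high fat diet, with Mbp the most abundant. Oligodendrocyte precursor markers, 2 of 6 increased and 2 decreased, summed to 88.1, 94.9, 87.1 and 80.8 FPKM against 75.9, 77.6, 84.6 and 72.5, led by Olig1. Astrocyte markers, 2 of 6 decreased, summed to 789.7, 987.2, 1004.7 and 816.3 FPKM against 834.0, 760.3, 751.0 and 789.8, led by Aldoc. The mature oligodendrocyte sums did not overlap between diets, whereas the other sums of this paragraph so far did. None of 5 microglia markers passed the limma test, and their sums were 122.3, 108.8, 101.5 and 117.8 FPKM against 118.2, 107.2, 111.1 and 112.7, led by C1qa. Endothelial markers, 2 of 5 decreased, summed to 62.3, 58.1, 56.4 and 55.7 FPKM against 50.6, 48.8, 50.7 and 44.0, led by Cldn5. Immediate early genes, 5 of 10 decreased, summed to 337.6, 269.7, 219.1 and 305.9 FPKM against 248.2, 211.7, 216.9 and 161.4, led by Arc. No marker of the lists other than Gabra6 was at 0 in a mouse. In bulk tissue, fewer cells of a type, less RNA per cell and a different share of each brain region in the sample cannot be told apart. The part of these cell types and regions in the differences of the zinc finger genes was not tested.

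**Figure D2:**
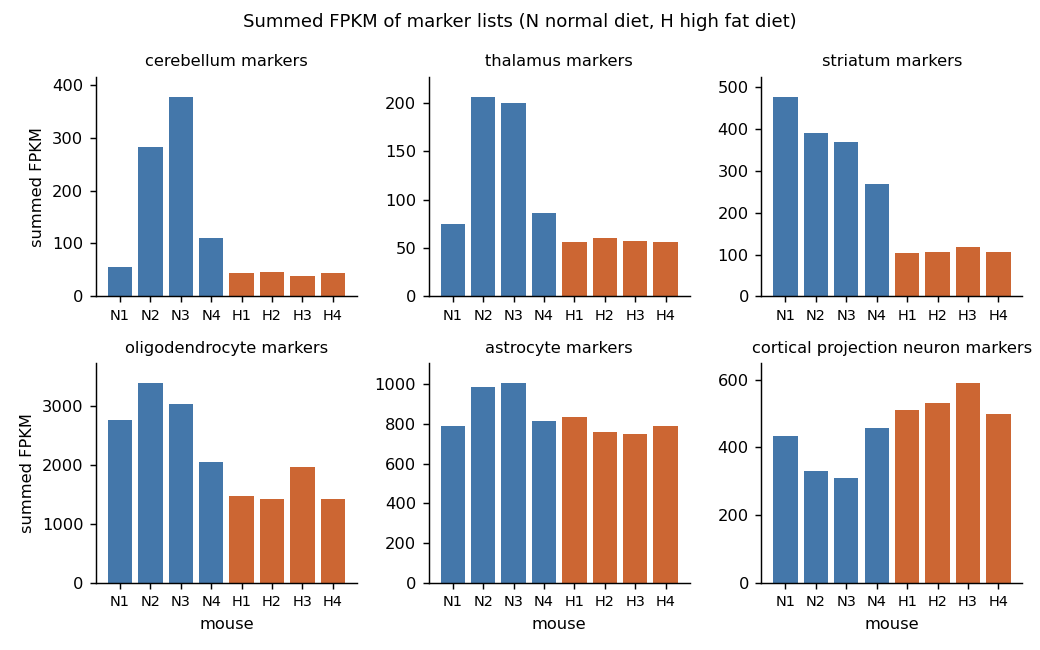
Bars give the summed FPKM of 6 marker lists in each mouse, N1 to N4 on the normal diet (blue) and H1 to H4 on the high fat diet (orange). Cerebellum sums are highest in N2 (282.1) and N3 (376.8), and striatum sums are above 268 in every normal diet mouse and below 118 in every high fat diet mouse.

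The count of called members depended on which mice were fitted, as the bars of passing genes show. Without normal diet mice 2 and 3, 27 members passed (17 increased and 10 decreased), 3 of them by over 1.5-fold, beside 19.6% of all genes tested, and 26 of the 27 were among the 66. All 66 kept their sign without those mice, with a median of 0.87 of the fold change kept. A fall of this size was not particular to that pair. In fits chosen after the data were seen, leaving out any other pair of normal diet mice gave 24 to 28 called members, except for 71 without mice 1 and 4. Of all genes, 15.8% to 22.1% passed in these fits, and 38.7% without mice 1 and 4. Leaving out any pair of high fat diet mice gave 10 to 31 called members, beside 9.85% to 18.3% of all genes. With the log2 level of 8 cerebellum markers as a covariate in limma, 1 member passed, Zfp787, which is not among the 66. Its FPKM was 6.9, 8.7, 9.2 and 8.2 FPKM in normal diet mice 1 to 4 and 9.5, 8.7, 8.9 and 8.7 FPKM in high fat diet mice 1 to 4. The values overlapped, and mouse 1 was the lowest on the normal diet and the highest on the high fat diet. Its log2 fold change was 0.12 (adjusted p = 0.301) without the covariate and 0.39 (adjusted p = 0.0447) with it. In that fit no member decreased, 49 members had an unadjusted p under 0.05, and 6.04% of all genes passed. Across the 8 mice this covariate correlated with diet at -0.79, and the linear one at -0.65, so that neither fit fully separates marker level from diet. No fit took striatum markers into account. Their sums in normal diet mice 1 and 4 (476.6 and 268.2 FPKM) were also above those of all high fat diet mice (at most 117.7 FPKM). The standard errors of the 66 members grew by a median factor of 1.60 in the log2 fit. With the same markers on a linear scale, 24 members passed (15 increased and 9 decreased), beside 17.7% of all genes tested. Zfp787 was 1 of them (log2 fold change 0.29, adjusted p = 0.0374). Leaving out 1 mouse at a time gave between 40 and 60 called members, beside 23.6% to 33.0% of all genes tested. The count was 40 without normal diet mouse 2 (23 increased and 17 decreased) and 41 without high fat diet mouse 2 (21 and 20), it was 45 without normal diet mouse 3 or high fat diet mouse 1, the decreases were 20 without high fat diet mouse 3, and 10 members passed with a change over 1.5-fold without normal diet mouse 4. In all 8 such fits, 32 of the 66 members kept their call, 19 increased and 13 decreased.

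**Figure D3:**
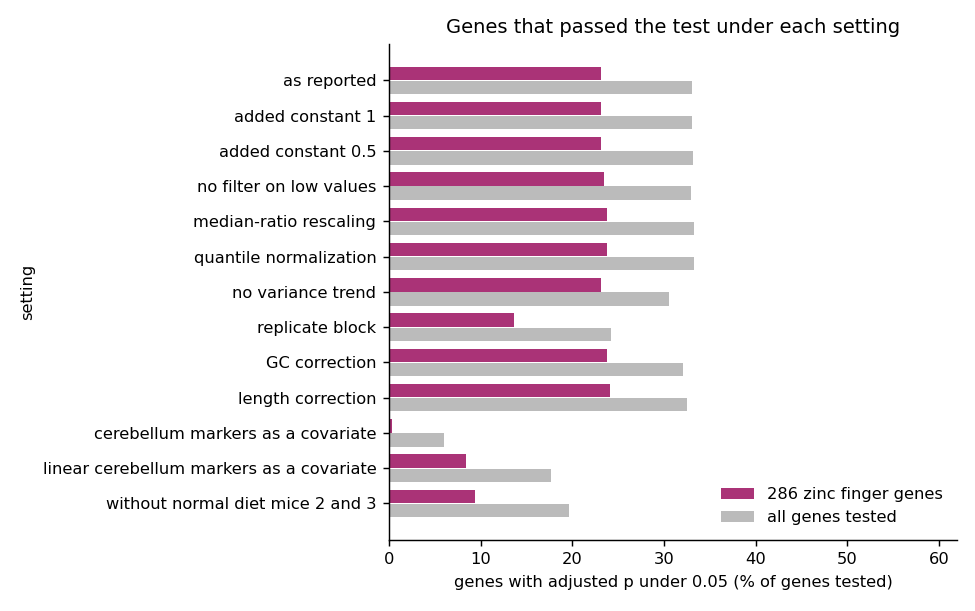
Bars give the share of genes with an adjusted p under 0.05 (x axis, %) among the 286 Zfp genes (purple) and among all genes tested (gray) under each setting (y axis). The Zfp share is 23.1% as reported and 9.44% without normal diet mice 2 and 3, and it is below the share of all genes in every setting drawn.

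Zfp831 led the 10 largest increases without overlap between diets. It had 3.6, 2.4, 2.6 and 3.9 FPKM in normal diet mice 1 to 4 and 6.0, 5.9, 5.3 and 5.8 FPKM in high fat diet mice 1 to 4. All 4 high fat diet mice were above all normal diet mice, and normal diet mice 2 and 3 were the lowest. Its mean was 3.13 ± 0.737 FPKM in normal diet mice against 5.75 ± 0.311 in high fat diet mice (SD, n = 4), a log2 fold change of 0.89 (SE 0.15, adjusted p = 0.00277). Zfp703 encodes a corepressor of the NET family and had 2.4, 2.4, 2.3 and 3.0 FPKM in normal diet mice 1 to 4 and 4.0, 4.5, 5.3 and 3.7 FPKM in high fat diet mice 1 to 4. The groups did not overlap, and normal diet mouse 4 was the highest of its group. This gave a log2 fold change of 0.76 (SE 0.13, adjusted p = 0.00285). Zfp341, whose product activates transcription of Stat3, had 2.0, 1.6, 1.5 and 2.2 FPKM in normal diet mice 1 to 4 and 2.9, 2.9, 3.7 and 2.7 FPKM in high fat diet mice 1 to 4. Again the high fat diet mice were all higher, with mouse 3 the highest. The difference came to a log2 fold change of 0.72 (SE 0.15, adjusted p = 0.00664). With a normal diet mean of 1.825 FPKM, below the member threshold of 2, Zfp341 is a member only through the high fat diet mice.

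Zfp362 transcripts were at 3.8, 3.2, 3.2 and 3.6 FPKM in normal diet mice 1 to 4 and 5.1, 4.9, 6.2 and 4.7 FPKM in high fat diet mice 1 to 4. Every high fat diet mouse exceeded every normal diet mouse, for a log2 fold change of 0.58 (SE 0.10, adjusted p = 0.00351). Levels of Zfp697 were 4.7, 4.3, 4.1 and 5.4 FPKM in normal diet mice 1 to 4 and 6.8, 7.5, 6.5 and 6.7 FPKM in high fat diet mice 1 to 4. Here normal diet mouse 4 came closest to the high fat diet mice, and the difference was a log2 fold change of 0.57 (SE 0.09, adjusted p = 0.00255). For Zfp865, a gene with 20 fingers, the values were 3.8, 3.8, 3.4 and 4.1 FPKM in normal diet mice 1 to 4 and 5.6, 6.0, 6.0 and 4.8 FPKM in high fat diet mice 1 to 4. Normal diet mice were within a narrow range below the high fat diet mice, with a log2 fold change of 0.55 (SE 0.09, adjusted p = 0.00285). Zfp385a encodes a p53-interacting protein that binds RNA, and it had 6.8, 7.2, 6.9 and 6.7 FPKM in normal diet mice 1 to 4 and 8.9, 10.3, 11.4 and 7.6 FPKM in high fat diet mice 1 to 4. The high fat diet mice spread more widely than the normal diet mice and were all above them, with a log2 fold change of 0.45 (SE 0.11, adjusted p = 0.0144). Zfp39 carries a KRAB-like motif and had 3.5, 3.5, 3.0 and 3.4 FPKM in normal diet mice 1 to 4 and 4.3, 4.5, 4.2 and 4.8 FPKM in high fat diet mice 1 to 4. The groups did not overlap, and the difference was a log2 fold change of 0.40 (SE 0.08, adjusted p = 0.00639).

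The calls of the other members of this set of 10, Zfp365 and Zfp853, ended in most fits that left out 1 mouse. Zfp365 had 128.6, 86.8, 85.1 and 125.5 FPKM in normal diet mice 1 to 4 and 138.2, 147.1, 151.9 and 137.5 FPKM in high fat diet mice 1 to 4. Normal diet mice 2 and 3 were well below mice 1 and 4 of the same diet, which came close to the high fat diet mice. The mean was 107 ± 23.8 FPKM in normal diet mice against 144 ± 7.01 in high fat diet mice (SD, n = 4), with a log2 fold change of 0.46 (SE 0.14, adjusted p = 0.0291). Without normal diet mice 2 and 3 its log2 fold change was 0.18 (adjusted p = 0.0636), and with the linear covariate 0.13 (adjusted p = 0.236). The call also ended without normal diet mouse 2 alone (0.37, adjusted p = 0.0752), normal diet mouse 3 (0.36, adjusted p = 0.0653), high fat diet mouse 1 (0.48, adjusted p = 0.0546), high fat diet mouse 2 (0.45, adjusted p = 0.0701) and high fat diet mouse 3 (0.43, adjusted p = 0.0695), and with replicate number as a block (adjusted p = 0.0588). Zfp853 had 2.3, 1.4, 2.1 and 2.2 FPKM in normal diet mice 1 to 4 and 3.3, 2.7, 2.7 and 2.7 FPKM in high fat diet mice 1 to 4. Normal diet mouse 2 was the lowest and high fat diet mouse 1 the highest, and the difference was a log2 fold change of 0.51 (SE 0.16, adjusted p = 0.0341). Its call ended without normal diet mouse 2 (0.35, adjusted p = 0.0503), normal diet mouse 3 (0.54, adjusted p = 0.0528), or high fat diet mouse 1 (0.44, adjusted p = 0.0915), 2 (0.53, adjusted p = 0.0648), 3 (0.53, adjusted p = 0.0576) or 4 (0.53, adjusted p = 0.0563). It also ended without normal diet mice 2 and 3 together (0.32, adjusted p = 0.11), with the linear covariate (0.35, adjusted p = 0.243) and after a correction for GC content (0.43, adjusted p = 0.0684).

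Adding the log2 cerebellum marker level to the limma fit ended the calls of all 10 increases, with adjusted p from 0.0948 for Zfp703 to 0.911 for Zfp365. It lowered the log2 fold change to 0.46 for Zfp831, 0.38 for Zfp341, 0.37 for Zfp362 and 0.22 for Zfp853, and turned that of Zfp365 to -0.03. Others kept more of it, with 0.66 for Zfp703, 0.46 for Zfp385a, 0.45 for Zfp865, 0.41 for Zfp697 and 0.31 for Zfp39. Over the 66 called members, a median of 0.78 of the fold change was kept in this fit. With the linear covariate the log2 fold change of Zfp831 was 0.58 (adjusted p = 0.0166), and Zfp341 (0.47, adjusted p = 0.0686), Zfp385a (0.47, adjusted p = 0.0571) and Zfp39 (0.32, adjusted p = 0.0607) no longer passed. Zfp385a also missed the threshold without normal diet mice 2 and 3 (0.48, adjusted p = 0.0544). Zfp580, a member named after its values were seen, increased by over 1.5-fold with overlapping groups. It had 3.8, 2.7, 3.4 and 4.8 FPKM in normal diet mice 1 to 4 and 6.0, 6.4, 6.8 and 4.5 FPKM in high fat diet mice 1 to 4, with normal diet mouse 4 above high fat diet mouse 4. The test gave a log2 fold change of 0.69 (SE 0.18, adjusted p = 0.0167), and the call ended without normal diet mice 2 and 3 (0.45, adjusted p = 0.103), with the replicate block (adjusted p = 0.055), and with the log2 (0.37, adjusted p = 0.424) or linear covariate (0.47, adjusted p = 0.156).

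**Figure D4:**
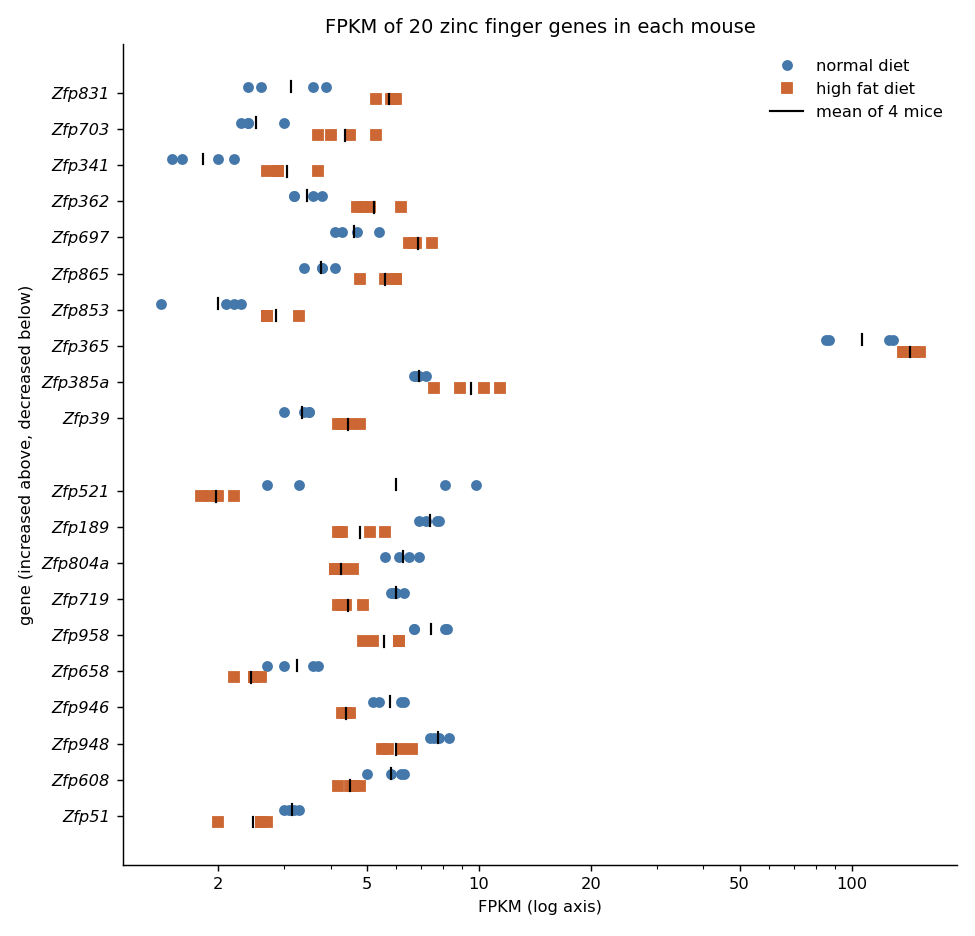
Points give the FPKM of each mouse (x axis, log scale) for the 10 largest increases (upper block) and the 10 largest decreases (lower block) without overlap between diets, with normal diet mice as blue circles, high fat diet mice as orange squares and the mean of 4 mice as black lines. Zfp521 has its normal diet mice in separate pairs, at 2.7 and 3.3 and at 8.1 and 9.8 FPKM.

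Among the 10 largest decreases, the plot of single mice shows a split normal diet group for Zfp521. Zfp521, a regulator of neural and adipocyte precursors that binds Ebf1, had 2.7, 8.1, 9.8 and 3.3 FPKM in normal diet mice 1 to 4 and 1.9, 2.2, 2.0 and 1.8 FPKM in high fat diet mice 1 to 4. Normal diet mice 2 and 3, those with the highest cerebellum marker sums, were far above normal diet mice 1 and 4, and all high fat diet mice were lower still. Its mean was 5.98 ± 3.51 FPKM in normal diet mice against 1.98 ± 0.171 in high fat diet mice (SD, n = 4), with a log2 fold change of -1.35 (SE 0.37, adjusted p = 0.0208). The high fat diet mean was below the member threshold of 2 FPKM, so that Zfp521 is a member only through the normal diet mice. Without mice 2 and 3 the log2 fold change was -0.58 (adjusted p = 0.0266), so that the call remained at a smaller size. Without normal diet mouse 2 alone it was -1.14 (adjusted p = 0.0567). With the linear covariate it was -0.41 (adjusted p = 0.0596), and with the log2 covariate the sign turned, to 0.02 (adjusted p = 0.965).

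Zfp189, known as a CREB target in prefrontal neurons, had 7.2, 7.7, 6.9 and 7.8 FPKM in normal diet mice 1 to 4 and 4.2, 4.3, 5.1 and 5.6 FPKM in high fat diet mice 1 to 4. All high fat diet mice were below all normal diet mice, with a gap of more than 1 FPKM. The mean was 7.40 ± 0.424 FPKM in normal diet mice against 4.80 ± 0.668 in high fat diet mice (SD, n = 4), with a log2 fold change of -0.62 (SE 0.10, adjusted p = 0.00225). Zfp804a, the mouse counterpart of a gene in a human schizophrenia locus, had 6.1, 6.9, 6.5 and 5.6 FPKM in normal diet mice 1 to 4 and 4.3, 4.1, 4.1 and 4.6 FPKM in high fat diet mice 1 to 4. The high fat diet mice lay close together below the normal diet mice, with a log2 fold change of -0.54 (SE 0.08, adjusted p = 0.00174). Both calls remained without normal diet mice 2 and 3, at -0.64 (adjusted p = 0.0144) for Zfp189 and -0.44 (adjusted p = 0.0152) for Zfp804a. The normal diet mice left in that fit still had striatum marker sums above those of all high fat diet mice.

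Of the 10 largest decreases, 6 had the KRAB-like motif, beside 117 of the 286 members. Zfp719 had 5.9, 6.3, 5.8 and 6.0 FPKM in normal diet mice 1 to 4 and 4.2, 4.4, 4.3 and 4.9 FPKM in high fat diet mice 1 to 4. The groups were narrow and apart, with a log2 fold change of -0.42 (SE 0.07, adjusted p = 0.00265). Zfp946 had 6.3, 5.4, 6.2 and 5.2 FPKM in normal diet mice 1 to 4 and 4.4, 4.5, 4.3 and 4.4 FPKM in high fat diet mice 1 to 4. Its high fat diet mice differed by no more than 0.2 FPKM and were all lower, with a log2 fold change of -0.38 (SE 0.08, adjusted p = 0.00664). Zfp948 had 7.6, 8.3, 7.4 and 7.8 FPKM in normal diet mice 1 to 4 and 5.7, 6.2, 5.5 and 6.6 FPKM in high fat diet mice 1 to 4. No values overlapped, and the test gave a log2 fold change of -0.37 (SE 0.07, adjusted p = 0.0054). Zfp958 had 8.1, 6.7, 8.2 and 6.7 FPKM in normal diet mice 1 to 4 and 5.2, 6.1, 4.9 and 6.1 FPKM in high fat diet mice 1 to 4. Normal diet mice 1 and 3 were the highest, and high fat diet mice 1 and 3 the lowest. Its difference was a log2 fold change of -0.41 (SE 0.10, adjusted p = 0.0154), and the call ended with the replicate block (adjusted p = 0.0583), without normal diet mice 2 and 3 (-0.40, adjusted p = 0.0537) and with the linear covariate (-0.38, adjusted p = 0.085). Zfp608, a paralog of Zfp609 without a KRAB-like motif, had 5.0, 5.8, 6.2 and 6.3 FPKM in normal diet mice 1 to 4 and 4.8, 4.5, 4.2 and 4.6 FPKM in high fat diet mice 1 to 4. Normal diet mouse 1 came closest to the high fat diet mice, and the difference was a log2 fold change of -0.35 (SE 0.09, adjusted p = 0.0137). It did not pass without normal diet mice 2 and 3 (-0.31, adjusted p = 0.0898) or with the linear covariate (-0.27, adjusted p = 0.12).

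The calls of 2 of these decreases, Zfp658 and Zfp51, also ended in most fits that left out 1 mouse. Zfp658 had 3.0, 3.6, 3.7 and 2.7 FPKM in normal diet mice 1 to 4 and 2.5, 2.2, 2.6 and 2.5 FPKM in high fat diet mice 1 to 4, and normal diet mouse 4 came within 0.1 FPKM of high fat diet mouse 3. The test gave a log2 fold change of -0.38 (SE 0.12, adjusted p = 0.0332). Its call ended without normal diet mouse 2 (-0.33, adjusted p = 0.0893) or 3 (-0.32, adjusted p = 0.0864), without high fat diet mouse 1 (-0.40, adjusted p = 0.0631), 2 (-0.34, adjusted p = 0.0889) or 4 (-0.40, adjusted p = 0.0576), without normal diet mice 2 and 3 together (-0.21, adjusted p = 0.246), with the replicate block (adjusted p = 0.0678) and with the linear covariate (-0.19, adjusted p = 0.318). Zfp51 had 3.0, 3.3, 3.1 and 3.2 FPKM in normal diet mice 1 to 4 and 2.7, 2.6, 2.6 and 2.0 FPKM in high fat diet mice 1 to 4. High fat diet mouse 4 was well below the rest, and the difference was a log2 fold change of -0.34 (SE 0.11, adjusted p = 0.0365). Its call ended without any 1 of 7 mice, all but high fat diet mouse 1 (log2 fold change from -0.37 to -0.25, adjusted p from 0.05 to 0.0888), with the replicate block (adjusted p = 0.0761), without normal diet mice 2 and 3 (-0.32, adjusted p = 0.152) and with the linear covariate (-0.32, adjusted p = 0.157). With the log2 cerebellum marker covariate none of the 10 decreases passed, with adjusted p from 0.0568 for Zfp189 to 0.965 for Zfp521, and the log2 fold change was -0.14 for Zfp658 and -0.18 for Zfp608. It stayed about as large for Zfp189 (-0.63), Zfp946 (-0.42), Zfp958 (-0.42) and Zfp719 (-0.40), and was -0.41 for Zfp804a, -0.33 for Zfp948 and -0.31 for Zfp51.

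Members were also grouped by what their proteins are known to do, and the counts of these short lists stand beside 17.7% increased and 15.3% decreased over all genes tested. The genes listed as RNA, ribosome, ubiquitin and SUMO factors had 11 members, of which 3 increased and 1 decreased. Zfp451, a SUMO ligase, had 13.8, 13.6, 13.8 and 14.2 FPKM in normal diet mice 1 to 4 and 15.6, 16.1, 15.7 and 17 FPKM in high fat diet mice 1 to 4. All high fat diet mice were higher, by a small margin, with a log2 fold change of 0.22 (SE 0.05, adjusted p = 0.00792). A correction for transcript length lowered this to 0.09 (adjusted p = 0.163). Zfp91, a ubiquitin ligase, had 31.8, 33.2, 31.3 and 31.9 FPKM in normal diet mice 1 to 4 and 27.9, 28.3, 29.4 and 26.3 FPKM in high fat diet mice 1 to 4. Each high fat diet mouse was below each normal diet mouse, with a log2 fold change of -0.20 (SE 0.05, adjusted p = 0.0113). With the linear covariate it stayed at -0.20 (adjusted p = 0.0503). Zfp346, which binds double-stranded RNA, had 9.4, 9.1, 10.2 and 9.3 FPKM in normal diet mice 1 to 4 and 11.0, 10.3, 10.6 and 11.1 FPKM in high fat diet mice 1 to 4. The groups were next to each other without overlap, with a log2 fold change of 0.18 (SE 0.06, adjusted p = 0.0355). That call ended without any 1 of 7 mice, all but normal diet mouse 3 (log2 fold change from 0.16 to 0.20, adjusted p from 0.0509 to 0.0913), without normal diet mice 2 and 3 (0.20, adjusted p = 0.0561), with the replicate block (0.18, adjusted p = 0.0791) and with the linear covariate (0.22, adjusted p = 0.0609). Zfp385a was the other increase of the list. Neither of the 2 CCCH proteins that degrade mRNA passed the limma test, Zfp36l1 at -0.27 (adjusted p = 0.327) and Zfp36l2 at 0.12 (adjusted p = 0.611).

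Regulators of neural and glial development had 11 members, and 3 increased and 3 decreased. Zfp335, needed for neural progenitor division, had 7.3, 8.0, 7.3 and 7.2 FPKM in normal diet mice 1 to 4 and 9.1, 8.8, 9.4 and 8.7 FPKM in high fat diet mice 1 to 4. The high fat diet mice were all higher, with a log2 fold change of 0.27 (SE 0.06, adjusted p = 0.00749). Zfp24, a factor in oligodendrocyte maturation, had 20.2, 24.4, 21.5 and 20.1 FPKM in normal diet mice 1 to 4 and 17.4, 17.6, 18.6 and 19.0 FPKM in high fat diet mice 1 to 4. Normal diet mouse 2 was the highest, and the groups did not overlap. Its difference was a log2 fold change of -0.24 (SE 0.07, adjusted p = 0.0228), while without normal diet mice 2 and 3 it was -0.15 (adjusted p = 0.0998) and with the linear covariate -0.16 (adjusted p = 0.191). The call of Zfp24 also ended without high fat diet mouse 1 (-0.22, adjusted p = 0.0623) or 2 (-0.23, adjusted p = 0.0636) and with the replicate block (adjusted p = 0.0543). Zfp703, Zfp365, Zfp804a and Zfp521 were the other called genes of this list, and Zfp521 is a member only through the normal diet mice. Zfp423, a regulator of cerebellar and adipocyte development, did not pass and had 2.8, 6.3, 5.9 and 3.0 FPKM in normal diet mice 1 to 4 and 2.8, 3.3, 3.4 and 2.7 FPKM in high fat diet mice 1 to 4. Like Zfp521, it was highest in normal diet mice 2 and 3, and the other 6 mice lay close together (log2 fold change -0.46, adjusted p = 0.195). The sign of Zfp423 turned without normal diet mice 2 and 3 (0.06, adjusted p = 0.756) and with the log2 (0.42, adjusted p = 0.29) or linear covariate (0.14, adjusted p = 0.597). Zfp462, Zfp609, Zfp536 and Zfp292 had log2 fold changes of 0.07, 0.08, -0.03 and 0.02 and did not pass.

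Adipose and glucose regulators had 6 members, with 2 decreased and none increased, while none passed without normal diet mouse 2 or with either covariate. The decreases were Zfp521, a member only through the normal diet mice, and Zfp467, which promotes adipocyte formation. Zfp467 had 8.8, 11.9, 11.7 and 9.8 FPKM in normal diet mice 1 to 4 and 8.9, 7.8, 8.8 and 7.6 FPKM in high fat diet mice 1 to 4. The groups overlapped, and normal diet mice 2 and 3 were the highest. The limma result was a log2 fold change of -0.34 (SE 0.10, adjusted p = 0.0329). Without mice 2 and 3 the log2 fold change was -0.17 (adjusted p = 0.227), with the log2 covariate -0.04 (adjusted p = 0.885) and with the linear covariate -0.14 (adjusted p = 0.339). Its call also ended without normal diet mouse 2 (-0.28, adjusted p = 0.0866) or 3 (-0.29, adjusted p = 0.0819), high fat diet mouse 2 (-0.31, adjusted p = 0.0856) or 4 (-0.30, adjusted p = 0.0795) and with the replicate block (adjusted p = 0.0581). Zfp423, Zfp30, Zfp516 and Zfp407 of this list did not pass.

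General transcription factors had 7 members, with 1 increase. Zfp384, a nuclear matrix protein, had 6.0, 6.0, 5.3 and 5.9 FPKM in normal diet mice 1 to 4 and 7.3, 7.4, 7.5 and 6.7 FPKM in high fat diet mice 1 to 4. High fat diet mice were all above normal diet mice, with a log2 fold change of 0.31 (SE 0.07, adjusted p = 0.00772), and with the linear covariate it was 0.25 (adjusted p = 0.0714). Zfp148, a GC-rich promoter binding factor, had 33.6, 33.5, 33.4 and 33.5 FPKM in normal diet mice 1 to 4 and 34.6, 35.1, 33.9 and 35.9 FPKM in high fat diet mice 1 to 4. Its groups did not overlap, but the difference of 0.06 (adjusted p = 0.26) did not pass. Zfp143, Zfp281, Zfp592, Zfp687 and Zfp219 also did not pass, at -0.10, -0.08, 0.15, 0.13 and -0.27. Zfp219 would pass without normal diet mouse 1 (-0.42, adjusted p = 0.0321), while its sign turned without normal diet mice 2 and 3 (0.04, adjusted p = 0.799) and with the log2 (0.30, adjusted p = 0.163) or linear covariate (0.11, adjusted p = 0.462).

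KRAB repressors of repeats and imprints had 4 members, of which Zfp57, the imprint keeper, increased. Zfp57 had 3.2, 3.4, 3.5 and 3.4 FPKM in normal diet mice 1 to 4 and 4.9, 5.0, 4.0 and 3.8 FPKM in high fat diet mice 1 to 4. High fat diet mice 1 and 2 were the highest, and no values overlapped. The difference was a log2 fold change of 0.37 (SE 0.10, adjusted p = 0.0219). Its call ended without high fat diet mouse 1 (0.32, adjusted p = 0.0625) or 2 (0.31, adjusted p = 0.0648), without normal diet mice 2 and 3 (0.40, adjusted p = 0.0697), with the replicate block (adjusted p = 0.0535) and with the linear covariate (0.42, adjusted p = 0.0622). Zfp445, also an imprint factor, and Zfp809 and Zfp932, repressors of endogenous retroviruses, had log2 fold changes of 0.05, 0.07 and -0.03 and did not pass. With the log2 covariate, none of the called genes first described in these lists passed, from Zfp335 (adjusted p = 0.0853) to Zfp467 (adjusted p = 0.885), with Zfp24 at -0.10, Zfp467 at -0.04 and Zfp384 at 0.22. The fold changes of Zfp335 (0.31), Zfp57 (0.45), Zfp346 (0.22), Zfp451 (0.21) and Zfp91 (-0.20) were about as large as before or larger.

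The cofactors through which KRAB proteins silence DNA were described beside them. Of 21 such genes tested, 7 passed, a share like the 33.1% over all genes, and 2 of them increased and 5 decreased. After length correction 1 increased and 10 decreased, since Chd3 no longer passed and Fam208a, Chd4, Atrx, Dnmt3a and Cbx5 did (log2 fold change from -0.24 to -0.17), while none increased and 3 decreased with the linear covariate, and 1 increased and 3 decreased without normal diet mice 2 and 3. Trim28 had 38.5, 41.3, 39.2 and 39.1 FPKM in normal diet mice 1 to 4 and 39.5, 38.1, 38.7 and 39.9 FPKM in high fat diet mice 1 to 4. The groups overlapped (log2 fold change -0.02, adjusted p = 0.768). Setdb1 had 10.4, 10.4, 10.1 and 10.1 FPKM in normal diet mice 1 to 4 and 11.3, 11.8, 10.6 and 12.1 FPKM in high fat diet mice 1 to 4, and its difference of 0.16 missed the threshold (adjusted p = 0.0529), while it passed without high fat diet mouse 3 (0.19, adjusted p = 0.0272), after GC correction (adjusted p = 0.0357) and with a level filter of 5 FPKM (adjusted p = 0.0445). Its partner Atf7ip had 12.5, 11.7, 13.0 and 12.9 FPKM in normal diet mice 1 to 4 and 14.1, 15.5, 15.9 and 14.3 FPKM in high fat diet mice 1 to 4, all higher on the high fat diet. The estimate was a log2 fold change of 0.25 (SE 0.06, adjusted p = 0.011), and it stayed at 0.25 under the linear covariate (adjusted p = 0.0561). The HP1 gene Cbx3 had 34.9, 32.3, 35.6 and 36.4 FPKM in normal diet mice 1 to 4 and 26.7, 28.6, 27.5 and 30.9 FPKM in high fat diet mice 1 to 4. Its high fat diet mice were all lower, with a log2 fold change of -0.29 (SE 0.06, adjusted p = 0.00558). The HP1 gene Cbx1 had 14.7, 16.9, 16.7 and 15.5 FPKM in normal diet mice 1 to 4 and 12.7, 13.6, 12.8 and 12.9 FPKM in high fat diet mice 1 to 4. The same order of groups was seen, with a log2 fold change of -0.29 (SE 0.06, adjusted p = 0.00531).

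Sumo2, whose product modifies Trim28, had 39.9, 36.9, 38.2 and 37.0 FPKM in normal diet mice 1 to 4 and 33.2, 30.1, 31.2 and 33.9 FPKM in high fat diet mice 1 to 4. High fat diet mice were all lower, with a log2 fold change of -0.24 (SE 0.05, adjusted p = 0.00693). Mphosph8 of the HUSH complex had 17.8, 17.8, 19.8 and 18.3 FPKM in normal diet mice 1 to 4 and 15.2, 16.3, 16.0 and 16.4 FPKM in high fat diet mice 1 to 4. No values overlapped, and the test gave a log2 fold change of -0.20 (SE 0.05, adjusted p = 0.0156), which did not pass without normal diet mice 2 and 3 (-0.18, adjusted p = 0.06) or with the linear covariate (-0.15, adjusted p = 0.122). Morc3 decreased (log2 fold change -0.22, SE 0.06, adjusted p = 0.024), and its call ended without normal diet mouse 2 (-0.18, adjusted p = 0.0608), high fat diet mouse 3 (-0.21, adjusted p = 0.0557) or high fat diet mouse 4 (-0.20, adjusted p = 0.0585), without normal diet mice 2 and 3 (-0.16, adjusted p = 0.13) and with the linear covariate (-0.17, adjusted p = 0.17). Chd3 increased with overlapping groups (log2 fold change 0.23, SE 0.07, adjusted p = 0.033), and its call ended without any 1 of 6 mice, all but normal diet mouse 4 and high fat diet mouse 3 (log2 fold change from 0.19 to 0.24, adjusted p from 0.0508 to 0.088). It also ended without normal diet mice 2 and 3 (0.15, adjusted p = 0.199), with the linear covariate (0.16, adjusted p = 0.23), after GC (0.18, adjusted p = 0.115) or length correction (0.16, adjusted p = 0.105) and without the variance trend (adjusted p = 0.0545). With the log2 covariate none of the 7 cofactors passed (adjusted p from 0.0652 for Sumo2 to 0.446 for Chd3), and Cbx1, Mphosph8, Morc3 and Chd3 were at -0.14, -0.13, -0.14 and 0.15, while Sumo2 (-0.29), Cbx3 (-0.31) and Atf7ip (0.24) had fold changes about as large as without it.

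The fold changes of the members went with the base composition of their transcripts, which the choice of members did not use. GC content was known for all 286 members, with a median of 45.8% beside 49.8% over all genes tested. Among the 96 members of lowest GC (34.4% to 42.0%), 1 increased and 18 decreased, 69 had a negative fold change and the median was -0.08. All 1808 genes of up to 42.0% GC had 17.5% increased, 22.3% decreased and a median of -0.04. Among the 95 members of highest GC (49.7% to 68.7%), 24 increased and 4 decreased, 71 had a positive fold change and the median was 0.13. The 7157 genes of more than 49.6% GC had 22.0% increased, 10.5% decreased and a median of 0.05. The 95 members between them had 10 increases and 9 decreases (9.47%), beside 11.7% increased and 19.8% decreased over the 4998 genes from 42.0% to 49.6%.

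The rank correlation between GC content and fold change was 0.45 over the 286 members and 0.16 over 13963 genes. With a level filter of 5 FPKM the correlation was 0.47 over 187 members and 0.30 over 9631 genes, so that the gap depended on the filter. All members are protein-coding, as are 12519 of the 13982 genes tested. The points of the correlation share the same 8 libraries, and KRAB copies share sequence and base composition. With the GC content of coding sequence alone it was 0.48 over the 286 members. After a correction that removed the trend with GC over all genes it was 0.42 for the members and 0.05 for all genes, and the lowest and highest groups then had 1 increase and 23 decreases, and 19 increases and 4 decreases, with medians of -0.11 and 0.09. Without normal diet mice 2 and 3 the correlation was 0.49, with 1 increase and 4 decreases in the lowest group and 12 increases and 1 decrease in the highest. With 1 mouse left out it was from 0.38 (without high fat diet mouse 3) to 0.49 (without high fat diet mouse 4). The decreases in the lowest group were then 9 without normal diet mouse 2 or high fat diet mouse 3, 11 without normal diet mouse 3 or high fat diet mouse 2, and 12 without normal diet mouse 4 or high fat diet mouse 1. The increases in the highest group were 15 without high fat diet mouse 2, and its decreases were 1 without normal diet mouse 2 and 2 without high fat diet mouse 2 or 4. In the group between, increases were 5 without normal diet mouse 2 or high fat diet mouse 1 or 2, and 6 without normal diet mouse 3. That group had 4 increases and 5 decreases without normal diet mice 2 and 3 together, and 3 and 5 with the linear covariate. With the log2 covariate the correlation was 0.43 while no member of the lowest group (median -0.04) and 1 of the highest passed, and with the linear covariate it was 0.49, with 1 increase and 4 decreases in the lowest group and 11 increases and no decrease in the highest. With the replicate block the lowest group had 1 increase and 7 decreases and the highest 17 increases and 1 decrease. The number of fingers (-0.13) and transcript length (0.07) had weaker correlations with fold change.

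**Figure D5:**
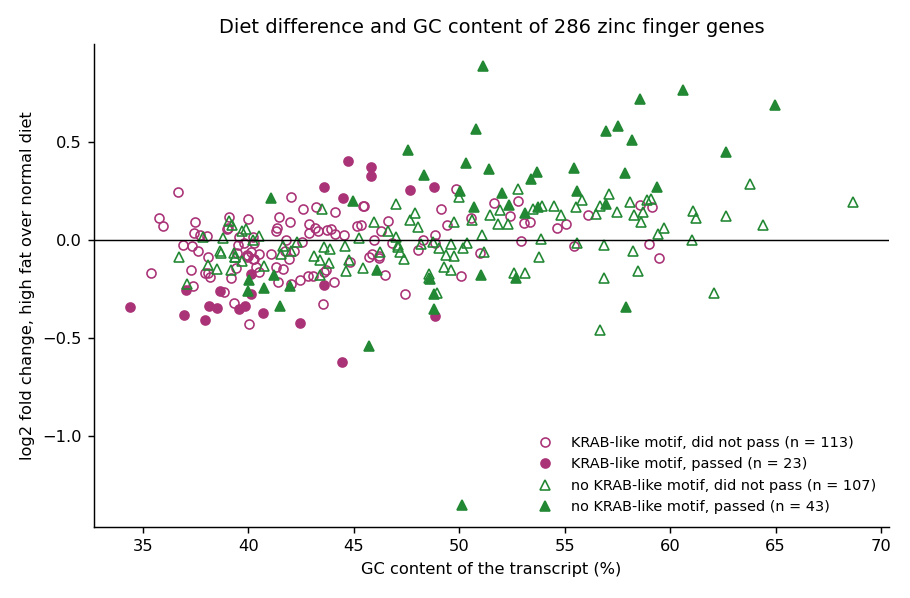
Each symbol is 1 of 286 Zfp genes, placed by the GC content of its transcript (x axis, %) and its log2 fold change, high fat over normal diet (y axis), with circles for genes with the looser KRAB-like motif, triangles for genes without it, and filled symbols for those that passed. Decreased KRAB-like genes gather below 45% GC, and the rank correlation is 0.38 over the 136 genes with the motif and 0.47 over the 150 without it.

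The same contrast can be read in the codons of single fingers. Each of 4 stretches encodes the part of a C2H2 finger from its first cysteine to its last histidine, 63 bases from the GRCm38 coding sequence, with the codons of the zinc-binding cysteines and histidines in capitals. They come from members with GC-poor transcripts that decreased (Zfp931, at 34.4% the lowest GC of all members, and Zfp946, at 36.9%) and GC-rich transcripts that increased (Zfp341, 58.6%, and Zfp335, 59.4%), and were picked after the values were seen. Zfp341 is a member only through the high fat diet mice. Each stretch is a single finger of a gene with several, and the other fingers are not printed.
Zfp931, chr2:178068217-178068279, minus strand: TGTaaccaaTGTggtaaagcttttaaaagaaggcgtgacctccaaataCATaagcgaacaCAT
Zfp946, chr17:22454828-22454890, plus strand: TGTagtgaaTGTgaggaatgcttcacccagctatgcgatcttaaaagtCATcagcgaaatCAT
Zfp341, chr2:154632304-154632366, plus strand: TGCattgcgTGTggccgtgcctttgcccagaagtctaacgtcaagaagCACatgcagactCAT
Zfp335, chr2:164902280-164902342, minus strand: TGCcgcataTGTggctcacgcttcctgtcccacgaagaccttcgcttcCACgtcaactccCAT

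The stretches were found by the spacing of their cysteines and histidines, which is therefore shared by all of them. Their GC content was 38.1%, 41.3%, 52.4% and 57.1% in the order printed. The last base of the codon was G or C in 5 of 21 codons in Zfp931 and 7 of 21 in Zfp946, and in 14 of 21 in Zfp341 and 15 of 21 in Zfp335. Zfp931 had 10.6, 14.6, 11.4 and 11.4 FPKM in normal diet mice 1 to 4 and 9.7, 8.9, 8.8 and 10.2 FPKM in high fat diet mice 1 to 4. Normal diet mouse 2 was the highest and no values overlapped. The limma result was a log2 fold change of -0.34 (SE 0.10, adjusted p = 0.0264), and the call ended without high fat diet mouse 2 (-0.32, adjusted p = 0.0717) or 3 (-0.31, adjusted p = 0.0656), without normal diet mice 2 and 3 (-0.23, adjusted p = 0.086), with the replicate block (adjusted p = 0.0594), and with the log2 (-0.14, adjusted p = 0.576) or linear covariate (-0.24, adjusted p = 0.198).

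Protein features were read from the translated coding sequence. The members held a median of 10 C2H2 fingers and at most 36. A KRAB-like motif, with the spacing of residues conserved in the KRAB A box, was found in 117 members, of which 6 increased (5.13%) and 14 decreased (12%), beside 17.7% and 15.3% of all genes tested, with a median GC of 42.0%. The 169 members without it had 29 increases (17.2%), 17 decreases (10.1%) and a median GC of 49.0%. With a looser form of the motif, chosen after the data were seen, 136 members had 7 increases and 16 decreases, and 150 had 28 and 15. Under the log2 covariate no KRAB-like member passed, and without normal diet mice 2 and 3 the counts were 2 and 4 with the motif and 15 and 6 without it. With the linear covariate they were 1 and 4 with the motif and 14 and 5 without it, and with the replicate block 4 and 7 with it and 21 and 7 without it. Leaving out 1 mouse gave 3 increases with the motif without normal diet mouse 2 or high fat diet mouse 2, 4 without normal diet mouse 3 or high fat diet mouse 1 and 9 decreases without normal diet mouse 2 or 3 or high fat diet mouse 2 or 3. Without the motif it gave 18 increases without high fat diet mouse 2, and 8 decreases without normal diet mouse 2, 10 without high fat diet mouse 1 and 11 without high fat diet mouse 2 or 3. The 119 members with 1 to 9 fingers had 19 increases (16.0%) and 14 decreases (11.8%), and the 162 with 10 or more had 14 (8.64%) and 17 (10.5%). A SCAN-like motif was present in 9 members, 2 increased and 2 decreased. No C2H2 finger was found in 5 members, among them the called genes Zfp365 and Zfp703. Reads of KRAB copies may have been split between them in the counting, so values of single KRAB genes are uncertain, and the sources used here do not give whether strand was used in counting.

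Position was the next shared feature. Members less than 1 Mb apart were joined, which gave 14 clusters of at least 5 members with 128 members in all. A cluster on chromosome 17 (chr17:21008903-23599487, GRCm38) held 17 members, 16 of them KRAB-like by the looser motif, which is used for all clusters, and 5 decreased and none increased, with 14 negative and a median log2 fold change of -0.17. This was 29.4% decreased, beside 15.3% of all genes tested, of which 17.7% increased. Of the 6 other genes tested there, none passed, and their median was -0.31. On chromosome 7 (chr7:41633203-43593235), 3 of 5 members decreased, all 5 were negative and the median was -0.28. Of the 3 other genes tested there, 1 decreased, and their median was 0.02. On another stretch of chromosome 7 (chr7:4983483-5053723), without KRAB-like genes and with a median GC of 58.9%, 2 of 5 members increased, Zfp865 and Zfp580, all 5 were positive and the median was 0.29. The 1 other gene tested there was at 0.10 and did not pass. A second cluster on chromosome 17 (chr17:32765496-33631779) with 12 KRAB-like genes of 13 had no called member, and none of 4 other genes tested there passed (median -0.20). These 4 clusters were picked from the 14 after their counts were seen.

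The counts in these clusters changed in other fits. Decreases in the first chromosome 17 cluster were 2 without normal diet mouse 1, 2 or 3 or high fat diet mouse 3, 3 without normal diet mouse 4, and 2 with the replicate block, with the linear covariate or without normal diet mice 2 and 3 together. The median there was -0.11 without normal diet mouse 3 or without normal diet mice 2 and 3, and -0.10 with the linear covariate. With the log2 covariate none passed in any of the 3 clusters, while the medians were -0.12 on chromosome 17, -0.20 in the cluster of 3 decreases on chromosome 7 and 0.29 in the cluster of 2 increases. The decreases on chromosome 7 were 2 of 5 without normal diet mouse 2 or 3 or high fat diet mouse 1, 2 or 4 and with the replicate block, and 1 of 5 with the linear covariate or without normal diet mice 2 and 3. The increases in the GC-rich cluster of chromosome 7 were 3 of 5 without high fat diet mouse 4, without the variance trend or after length correction, and 1 with the replicate block, with the linear covariate or without normal diet mice 2 and 3. After GC correction the decreases were 7 on chromosome 17 and 4 on chromosome 7.

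Promoters of members that decreased side by side were searched for motifs. RefSeq promoters of the GRCm38.p6 build, 250 bases before to 50 bases after the start, were matched for 238 of 286 members (290 promoters). The motifs, on both strands, were the CRE TGACGTCA, the GC box GGGCGG, the E-box CACGTG, the NRF1 core GCATGCGC and the YY1 core AAGATGGCG. In all 32851 promoters their shares were 1.79%, 35.7%, 7.15%, 2.71% and 1.40%, and in the members 3.10%, 45.2%, 5.52%, 5.52% and 3.45%. Promoters of the protein-coding genes tested held them at 3.08%, 62.8%, 9.74%, 5.11% and 2.91%. The 37 promoters of 26 increased members held them at 2.70%, 54.1%, 2.70%, 5.41% and 5.41%. The 28 promoters of 24 decreased members held them at 7.14%, 53.6%, 10.7%, 14.3% and 0%, where the E-box was in 3 and the NRF1 core in 4. The 3 with the E-box belong to Zfp943, Zfp944 and Zfp946, and those of Zfp715, Zfp658 and Zfp719 are among the 4. These are the clustered genes described next, so that the shares and the clusters rest on the same promoters. A match describes the letters in this window and is no evidence of binding.

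In the chromosome 7 cluster of decreases, 4 of 5 members held the NRF1 core in a promoter, including all 3 of the decreased genes. Zfp715, chosen after its values were seen, had 9.1, 10.5, 10.1 and 9.8 FPKM in normal diet mice 1 to 4 and 8.0, 8.2, 7.7 and 8.6 FPKM in high fat diet mice 1 to 4. All high fat diet mice were lower, with a log2 fold change of -0.28 (SE 0.06, adjusted p = 0.00946). Its call ended without normal diet mice 2 and 3 (-0.22, adjusted p = 0.0724) and with the log2 (-0.14, adjusted p = 0.348) or linear covariate (-0.20, adjusted p = 0.0879), and Zfp719 and Zfp658 were given above. The other holder was Zfp141 (-0.10, adjusted p = 0.527), and Zfp788, without the motif, was at -0.19 (adjusted p = 0.0791). The NRF1 core, read in the orientation of either strand, is in capitals in the 3 promoters and overlapped none of the other motifs. It began 29, 198 and 55 bases before the start.
Zfp715, chr7:43313251-43313550, minus strand: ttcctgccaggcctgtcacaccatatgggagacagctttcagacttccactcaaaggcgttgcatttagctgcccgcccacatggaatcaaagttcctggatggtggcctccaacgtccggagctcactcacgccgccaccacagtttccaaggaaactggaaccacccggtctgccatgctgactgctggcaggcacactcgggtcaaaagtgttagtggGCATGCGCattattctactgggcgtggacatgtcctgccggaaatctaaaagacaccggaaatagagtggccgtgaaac
Zfp658, chr7:43562120-43562419, plus strand: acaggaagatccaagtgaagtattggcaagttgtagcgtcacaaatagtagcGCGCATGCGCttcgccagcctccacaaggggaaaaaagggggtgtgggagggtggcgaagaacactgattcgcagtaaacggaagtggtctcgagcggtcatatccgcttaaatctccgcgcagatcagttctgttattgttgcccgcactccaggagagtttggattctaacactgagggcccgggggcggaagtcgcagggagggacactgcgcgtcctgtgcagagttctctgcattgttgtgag
Zfp719, chr7:43579336-43579635, plus strand: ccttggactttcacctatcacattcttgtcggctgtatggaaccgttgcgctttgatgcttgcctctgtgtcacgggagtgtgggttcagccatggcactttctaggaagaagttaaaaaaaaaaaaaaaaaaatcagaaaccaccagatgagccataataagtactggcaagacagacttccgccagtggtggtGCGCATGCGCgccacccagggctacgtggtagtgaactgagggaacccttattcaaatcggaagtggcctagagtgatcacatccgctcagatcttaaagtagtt

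In Zfp658 and Zfp719 the capitals cover overlapping matches on both strands, 2 in each. The longest exact stretch shared by these 2 promoters was 12 bases and held the motif. Zfp715 shared at most 9 bases with either. Whether the promoters are diverged copies was not tested. As KRAB genes of a cluster are tandem copies, these matches cannot be taken as independent of each other.

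In the chromosome 17 cluster, the E-box was found in 6 of the 15 members with a promoter and in 3 of the 4 decreased members with one. Zfp943, chosen after its values were seen like Zfp944, had 12.2, 11.9, 12.8 and 13.0 FPKM in normal diet mice 1 to 4 and 9.8, 11.3, 9.2 and 11.6 FPKM in high fat diet mice 1 to 4. High fat diet mice 1 and 3 were the lowest, and no values overlapped. The estimate was a log2 fold change of -0.26 (SE 0.08, adjusted p = 0.0342). Its call ended without any 1 of 6 mice, all but high fat diet mice 2 and 4 (log2 fold change from -0.28 to -0.20, adjusted p from 0.0508 to 0.0889). Zfp944 had 5.5, 5.7, 5.9 and 5.2 FPKM in normal diet mice 1 to 4 and 5.1, 5.0, 4.2 and 4.3 FPKM in high fat diet mice 1 to 4. High fat diet mice 3 and 4 were the lowest, and the lowest normal diet mouse was 0.1 FPKM above the highest high fat diet mouse. The fit gave a log2 fold change of -0.26 (SE 0.08, adjusted p = 0.0406). That call ended without normal diet mouse 1, 2 or 3 or high fat diet mouse 3 or 4 (log2 fold change from -0.27 to -0.21, adjusted p from 0.0645 to 0.0989). Without normal diet mice 2 and 3 together Zfp943 was at -0.27 (adjusted p = 0.101) and Zfp944 at -0.20 (adjusted p = 0.215). With the linear covariate they were at -0.25 (adjusted p = 0.131) and -0.19 (adjusted p = 0.248), with the log2 covariate at -0.22 (adjusted p = 0.326) and -0.18 (adjusted p = 0.449), and the replicate block gave adjusted p of 0.0595 and 0.0728 at unchanged fold changes. Zfp946 was given above. The E-box is in capitals in their promoters, where it began 46, 29 and 10 bases before the start and overlapped none of the other motifs.
Zfp943, chr17:21962309-21962608, plus strand: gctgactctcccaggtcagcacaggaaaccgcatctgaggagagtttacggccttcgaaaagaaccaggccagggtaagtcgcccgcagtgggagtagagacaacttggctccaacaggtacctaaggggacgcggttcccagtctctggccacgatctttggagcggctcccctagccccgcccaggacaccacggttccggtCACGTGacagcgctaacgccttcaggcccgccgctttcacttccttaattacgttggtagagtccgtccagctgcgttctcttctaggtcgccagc
Zfp944, chr17:22361351-22361650, minus strand: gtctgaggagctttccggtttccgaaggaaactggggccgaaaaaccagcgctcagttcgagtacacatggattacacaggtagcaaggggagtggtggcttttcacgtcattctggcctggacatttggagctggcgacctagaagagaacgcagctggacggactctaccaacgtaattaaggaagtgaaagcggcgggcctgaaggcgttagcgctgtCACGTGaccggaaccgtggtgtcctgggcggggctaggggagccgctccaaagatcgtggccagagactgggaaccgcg
Zfp946, chr17:22423952-22424251, plus strand: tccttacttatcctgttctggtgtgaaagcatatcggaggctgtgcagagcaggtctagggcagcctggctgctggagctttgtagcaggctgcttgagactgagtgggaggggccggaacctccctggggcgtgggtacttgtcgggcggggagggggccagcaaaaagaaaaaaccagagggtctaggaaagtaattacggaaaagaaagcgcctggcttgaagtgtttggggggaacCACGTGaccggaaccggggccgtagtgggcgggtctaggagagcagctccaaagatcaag

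The first 2 of these promoters share an exact stretch of 169 bases in opposite orientation, which holds the E-box. Zfp946 shares at most 16 bases with either of them, again around the E-box. These promoters are copies in part, so that their motif matches are not independent of each other.

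Mice also differed in how often they held the extreme value of a member. Normal diet mice 2 and 3 were the highest of 8 mice for 47 and 48 of 286 members (16.4% and 16.8%), beside 14.7% and 15.1% over all genes tested. High fat diet mouse 3 was the lowest for 51 members (17.8%), beside 14.8% over all genes. The same mouse was the highest for 33 members (11.5%), beside 17.5% over all genes. Normal diet mouse 3 was the lowest for 33 members (11.5%), beside 18.1% over all genes. Normal diet mouse 4 was least often extreme, highest for 16 members (5.59%) and lowest for 22 (7.69%), beside 6.44% and 6.14% over all genes.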

How the data were processed

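Total RNA from 8 cortexes, 4 per diet, was depleted of rRNA, and stranded libraries were sequenced as read pairs. Per the labels, the authors used FastQC and Trimmomatic for read quality, STAR for alignment (mm10) and Cuffnorm for FPKM on the GENCODE basic annotation (GRCm38.p6), with no tool versions stated. The deposited FPKM table holds 13996 genes. Depth is not given, so no counting error could be derived.

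From these values, the 13982 genes whose mean FPKM reached 1 and that had no 0 were transformed as log2(FPKM + 0.1). Diets were compared by limma 3.58.1 with a variance trend in R 4.3.3, two-sided, with Benjamini-Hochberg adjustment over all genes tested. Tables and plots were made with Python 3.11.15, numpy 2.4.6, pandas 2.3.3, scipy 1.17.1 and matplotlib 3.10.9. The procedure was tested on simulated data of 13982 genes. It called 58 of 100 changes of 1.5-fold, 89 of 100 changes of 2-fold and 7 unchanged genes. The noise was drawn for each gene separately, so that differences shared by many genes of a mouse were not simulated. The members and gene lists were chosen with earlier results of these data known.

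Genes chosen by rule were the 10 largest increases and the 10 largest decreases with adjusted p under 0.05 and no overlap between diets, the 3 members of highest level, the 3 on each side of the level threshold, and the genes of the role and cofactor lists, not all of which are printed. Zfp787, Zfp141 and Zfp788 were named outside this rule, like the genes given as picked after their values were seen. Alternatives were added constants of 0.5 and 1, no filter, a filter at 5 FPKM, median-ratio and quantile rescaling, no variance trend, a replicate block, GC and length corrections (loess), a log2 cerebellum marker covariate, member thresholds of 1 and 5 FPKM, and 1 mouse left out at a time. A linear marker covariate, the removal of normal diet mice 2 and 3, the removal of every other pair of mice of 1 diet and a looser KRAB motif were added after seeing the data. Positions, GC content, length and coding sequence came from GENCODE annotation of GRCm38, and promoters from RefSeq.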

Additional observations from a re-analysis of the deposited data

Results flagged for a closer look

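Of 188 groups of 4 mice checked, 14 (7.45%) held 1 mouse whose distance to the nearest other mouse made up most of the range of its diet group, and chance alone gives this in about 1 in 20 groups. Among the zinc finger genes on the normal diet, the mouse far above the others was at 3.0 FPKM for Zfp703 and at 8.0 FPKM for Zfp335. The mouse far below the others was at 5.3 FPKM for Zfp384 and at 4.2 FPKM for Zfp592. On the high fat diet, 1 mouse was far above the others for Zfp853, at 3.3 FPKM. One was far below for Zfp51 at 2.0 FPKM, Zfp786 at 1.9 FPKM, Zfp964 at 1.6 FPKM and Zfp36l2 at 2.1 FPKM. Among the KRAB cofactors, the separate mouse was at 92.1 FPKM for Chd3 (high fat diet, lowest), 16.0 FPKM for Fam208a (normal diet, highest) and 71.7 FPKM for Cbx5 (normal diet, highest). High fat diet mouse 3 stood above its group in the summed FPKM of striatum markers, at 117.7, and of oligodendrocyte markers, at 1967.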

How the results depend on the processing

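The counts of called, increased and decreased members stayed near the reported values with the other added constants, without a filter, with either rescaling, without the variance trend and after GC or length correction, with a median log2 fold change from -0.0302 after length correction to -0.0092 with an added constant of 1 (-0.0111 as reported), while changes over 1.5-fold in either direction numbered 3 with an added constant of 1 and 1 with a filter at 5 FPKM. With the mice paired by number as a replicate block, 39 members (13.6%) passed, beside 24.2% of all genes tested. Of the 39, 25 increased and 14 decreased, 5 changed by over 1.5-fold, and the median over all members was -0.01. Deviations from the diet means, taken over all genes, correlated between mice of the same number at -0.04, -0.03, -0.11 and -0.07, and gave no sign that the numbers pair mice. With the log2 cerebellum marker covariate, the limma counts were 1 called, 1 increased, 0 decreased and 0 over 1.5-fold (49 at an unadjusted p under 0.05), the median was 0.017, and Zfp365 (-0.025) and Zfp521 (0.0228) turned sign. With the linear covariate, chosen after seeing the data, they were 24, 15, 9 and 2 with a median of 0.0131, and 17.7% of all genes passed. Without normal diet mice 2 and 3, also chosen after seeing the data, they were 27, 17, 10 and 3 with a median of 0.01, and 19.6% of all genes passed. For members at 5 FPKM or more, 23 increased and 1 passed with a change over 1.5-fold. With 1 mouse left out, the ranges were 40 to 60 called, 21 to 33 increased, 17 to 28 decreased, 4 to 10 over 1.5-fold, and a median from -0.0188 to 0.0093. Of all genes, 23.6% to 33.0% passed in these fits. The cause was not tested in any of these cases. Depth is unknown and FPKM is rounded to 0.1, which limits members near the threshold most.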
